A study of Rattus norvegicus with 8 samples.

Results

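The genes described here build and bind the basement membrane that encloses the ovarian follicle. They are the laminin chain genes Lama1, Lamb1 and Lamc1, the type IV collagen chain genes Col4a1 and Col4a2, the nidogen genes Nid1 and Nid2, the perlecan gene Hspg2, the fibronectin gene Fn1 and Sparc. A probe set, the group of probes that reads a single transcript, was taken when the platform annotation named exactly 1 of these genes for it. This gave 14 probe sets for the 10 genes, of 20826 probe sets for 14217 named genes on the array. A gene counted as measured when a probe set lay above its array's median signal on at least 2 arrays, which held for 9 of the 10 genes, for 13 of the 14 probe sets and for 10513 named genes in all. Nid2 did not pass.

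RNA came from rat granulosa cells, the somatic cells inside the follicle that nourish the oocyte and make oestradiol, and each of 8 samples was read on its own one-colour Affymetrix array. The design text of the series describes immature rats primed with the gonadotropin eCG. After 24 h they were injected with antibody to eCG, which sends follicles into atresia (degeneration), or with serum from before immunisation. After embryo transfer, 0% of oocytes of the antibody group and 30 to 50% of the serum group developed to term. Both groups had received eCG. The labels of the arrays differ only in a number (2074, 2076 and 2194 to 2199) and give no treatment, strain, age or pooling, so no array could be placed in a group and antibody was not compared with serum. Nothing in the labels says that the samples came from separate animals, so p-values speak only of these samples. Each is a permutation p of a correlation and takes the arrays as interchangeable. The arrays may belong to different groups, so this could not be checked. Values are given per array in the order of the label numbers, which carries no meaning.

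A basement membrane is a thin sheet of matrix on which epithelial cells rest. Laminins, trimers of an alpha, a beta and a gamma chain, and type IV collagen, a trimer of alpha chains, each form a network, and nidogens and the heparan sulfate proteoglycan perlecan link them. In the follicle the basal lamina separates the avascular granulosa layer from the vascularised theca, and its make-up is known to change as follicles grow. Granulosa cells of large follicles are also known to deposit small aggregates of basement membrane material between themselves.

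The promoters of the type IV collagen genes are shown first because both genes are read outward from a single short stretch. In the GRCr8 build, per RefSeq, their transcription starts face away from each other with 76 bases between them on chromosome 16. Among 16845 genes on the forward strand, 348 (2.07%) had the start of a reverse-strand gene at most this far upstream. The bases between the starts, chr16:84885521-84885596, are written on the forward strand, on which Col4a1 is read to the right and Col4a2 on the opposite strand to the left. Capitals mark GGGCGG, the GC box letters, on either strand (CCGCCC when on the other strand).
Col4a2 to Col4a1: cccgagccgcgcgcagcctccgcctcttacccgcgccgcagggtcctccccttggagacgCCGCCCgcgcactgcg
Below are the 250 bases before the start of Lamc1, the member whose signal varied least over arrays (chr13:68051987-68052236, reverse strand), of Hspg2 (chr5:154960596-154960845, forward strand) and of Sparc (chr10:40038817-40039066, reverse strand), the other members with a wide spread, with the same letters in capitals.
Lamc1: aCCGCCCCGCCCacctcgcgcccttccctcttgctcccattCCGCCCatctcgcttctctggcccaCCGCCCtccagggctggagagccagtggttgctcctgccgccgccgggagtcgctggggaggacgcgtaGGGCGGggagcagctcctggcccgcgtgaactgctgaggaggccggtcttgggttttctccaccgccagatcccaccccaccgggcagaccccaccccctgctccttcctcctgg
Hspg2: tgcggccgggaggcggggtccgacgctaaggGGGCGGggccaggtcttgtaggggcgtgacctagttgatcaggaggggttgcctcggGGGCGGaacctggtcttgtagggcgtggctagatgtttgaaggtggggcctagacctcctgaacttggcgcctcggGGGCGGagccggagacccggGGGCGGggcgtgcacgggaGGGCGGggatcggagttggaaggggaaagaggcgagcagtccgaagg
Sparc: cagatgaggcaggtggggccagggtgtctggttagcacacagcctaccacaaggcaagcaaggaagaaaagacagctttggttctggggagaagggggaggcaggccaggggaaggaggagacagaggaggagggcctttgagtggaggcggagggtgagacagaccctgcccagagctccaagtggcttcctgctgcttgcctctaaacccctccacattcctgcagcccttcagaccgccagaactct

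Promoters were found in the table for 8 members. In the 250 bases before the start, GGGCGG occurred on either strand in 6 of these 8 (Col4a1, Col4a2, Hspg2, Lamb1, Lamc1 and Nid1), against 30.5% of 33469 listed promoters, with 5 matches each in Lamc1 and Hspg2 and 0 in Sparc and Lama1. The windows of Col4a1 and Col4a2 overlap in the stretch between their starts, and the 1 match of Col4a1 lies there and is also counted for Col4a2. CCAAT occurred in Col4a1, Col4a2 and Nid1, against 34.0% of all promoters. The letters TATAAA (12.9% of promoters), TGACGTCA (1.59%) and TGANTCA (6.34%) were in none of the 8 windows. GGGCGG was the only one of these motifs in the printed stretches, and in the 8 windows the only overlap was between a pair of GGGCGG matches in Lamc1, which share 1 base. The share of G and C was 75.2% for Col4a1, 74.4% for Col4a2 and 71.2% for Lamc1, against a median of 51.2% over all promoters, and Lama1 had the lowest, 44.8%. These matches describe letters and say nothing of binding.

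Arrays 2074 and 2076 stood apart from the rest. Over the probe sets above the median on every array, their log2 signals correlated with each other at Pearson's r = 0.955, the other 6 arrays among themselves at 0.909 to 0.952, and the pair with the other 6 at 0.849 to 0.902. The pair lay above all of the other 6 in 13.6% of the 10513 measured genes and below all of them in 14.5%. For beta-actin the control probes near the 3' end were 11.0 and 12.1 times as bright as those near the 5' end on arrays 2074 and 2076, against 4.67 to 8.08 times on the other 6, while for Gapdh the ratios were 6.66 and 6.07 against 5.27 to 8.81. Of 10 granulosa markers, 9 had a named probe set and all 9 were measured, among them Cyp19a1, Inha, Foxl2 and Amh. Markers of other cells are likewise counted over those with a named probe set. Those measured were 7 of 10 for stroma and smooth muscle, 3 of 4 for theca and 5 of 8 for endothelium. For leukocytes they were 5 of 8 and for the oocyte 2 of 5, against 10513 of 14217 for all named genes. No value was at 0, and a low signal is not told from background here. In a bulk sample, fewer cells of a type and less RNA per cell cannot be told apart.

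The basement membrane genes ranged from very steady to widely spread over the 8 arrays. The measure is the inner range, the second highest signal divided by the second lowest one, so that neither extreme array enters. It was at least 2-fold in 3 of the 9 measured members (Col4a1, Hspg2 and Sparc), against 29.8% of all measured genes. The median was 1.79-fold over the members and 1.71-fold over all measured genes. The full range, highest over lowest array, was at least 2-fold in 7 of the 9, against 71.4% of all measured genes, with medians of 2.39-fold and 2.46-fold. The count of 3 was 1 when array 2074, 2197 or 2198 was left out. The share of all measured genes was lower there too, at 18.8%, 24.1% and 23.4%, against 29.8% over 8 arrays. None of the 3 genes was in the count throughout. Col4a1 was not in it without array 2074 or 2076, and Hspg2 not without 2195, 2197, 2198 or 2199. Sparc was not in it without 2074, 2196, 2197 or 2198.

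**Figure D1:**
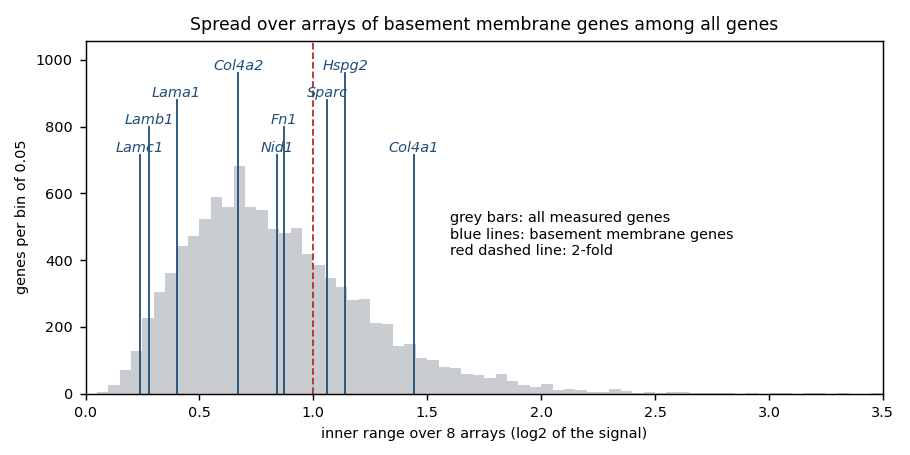
Grey bars count the 10513 measured genes by inner range over 8 arrays (log2 of the signal), blue lines mark the 9 measured basement membrane genes and the red dashed line marks 2-fold. Lamc1 and Lamb1 lie at the narrow end at 0.24 and 0.28, and Col4a1 lies farthest to the right of the members at 1.44.

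**Figure D2:**
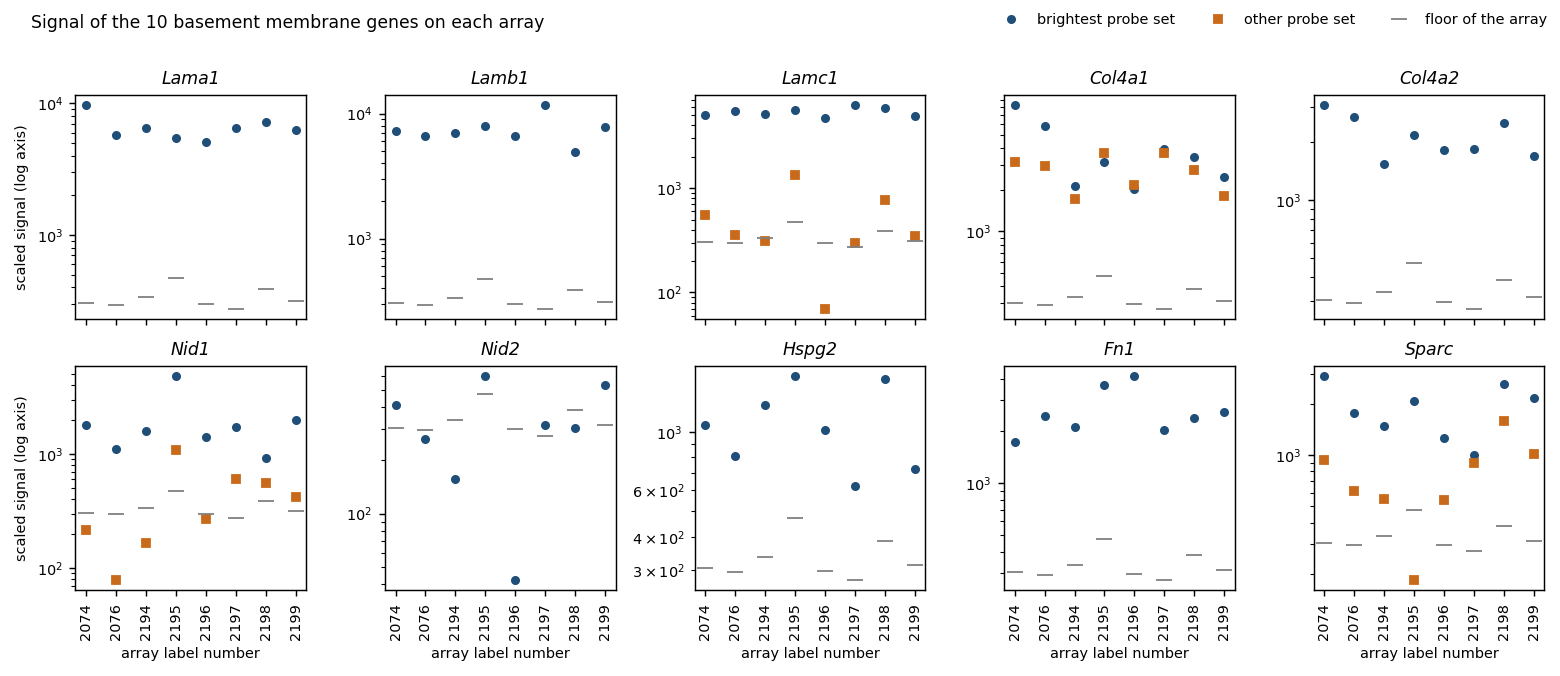
Scaled signal (log axis) of each probe set of the 10 genes on each of the 8 arrays, with blue circles for the brightest probe set of a gene, orange squares for a second one and grey dashes for the array's floor, its 40th percentile. Each gene has its own vertical scale. Lamc1 is the most level, Lamb1 is high on array 2197, the brightest Col4a1 probe set and Col4a2 are highest on arrays 2074 and 2076, Nid1 is highest on array 2195, and Nid2 and the second probe sets of Lamc1 and Nid1 lie near or below the floor on several arrays.

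By the inner range of the brightest probe set, the laminin chains were the steadiest members. Lamc1, the gamma chain shared by most laminins, gave scaled signals of 4979, 5530.5, 5105, 5552, 4689, 6247, 5826 and 4929. No array stood out, and its inner range of 1.18-fold was matched or exceeded by 98.1% of measured genes. Lamb1, the beta chain that pairs with it, gave 7310.3, 6589, 7042, 7999, 6628, 11702, 4942 and 7831. Array 2197 was high and array 2198 low, so the full range was 2.37-fold, while the 6 arrays between them spanned an inner range of 1.21-fold. Lama1, the alpha chain of laminin-111, gave 9729, 5792, 6539.7, 5504, 5067, 6526, 7240.2 and 6252. Array 2074 was the highest, the full range was 1.92-fold and the inner range 1.32-fold, so that 89.6% of genes varied as much or more. By full range Lamb1 exceeded Col4a2 (2.37-fold against 2.02-fold). With the mean of its probe sets Lamc1 had an inner range of 1.62-fold. A second, dimmer probe set of Lamc1 varied far more, 1.36 or more on the log2 scale against 0.24, but it passed the array median on only 3 arrays and was at the floor on 2.

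The type IV collagen chains were the members that followed arrays 2074 and 2076. Col4a1 gave 8218 and 5765 on these arrays, against 2127, 3181, 2017, 3926, 3428 and 2475 on arrays 2194 to 2199, without overlap. Its full range was 4.07-fold and its inner range 2.71-fold, wider than in 92.0% of measured genes. Over arrays 2194 to 2199, scaled on all 8 arrays, the full range was 1.95-fold. Col4a2, which joins 2 Col4a1 chains in the trimer, gave 3089 and 2668 on arrays 2074 and 2076, against 1532, 2166, 1817, 1828, 2506 and 1679 on the other 6, again without overlap though array 2198 came close. Its full range was 2.02-fold and its inner range 1.59-fold. They were the only 2 of the 9 members with this order, against 13.6% of genes, and 0 of the 9 had the opposite order, against 14.5%.

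The order for Col4a1 depended on the probe set. Its second probe set gave 3194 and 2989 on arrays 2074 and 2076, against 1703, 3677, 2167, 3667, 2770.3 and 1801 on the other 6, and there arrays 2195 and 2197 were the highest. Over arrays 2194 to 2199 the probe sets followed each other (r = 0.85), and over all 8 arrays r was 0.66. Set against Col4a2 within each array and centred on the median array, the brightest Col4a1 probe set was higher by 0.85 and 0.55 (log2) on arrays 2074 and 2076, and the second one by -0.11 and 0.01. Array 2197 was high in both, by 0.55 and 0.85. The excess on the pair was thus seen in 1 of the 2 Col4a1 probe sets and in the Col4a2 probe set. The beta-actin 3' to 5' ratio was also highest on this pair, and its part in the result was not tested. The stroma and smooth muscle markers summed to 8093 and 5766 on the pair, against 3992 to 7387 on the other 6 arrays, with overlap. This sum takes in all 10 markers with a named probe set, also Tagln, Pdgfra and Des, which were not measured. The pair lay above the rest in 1 of the 7 measured markers, Col1a2 (14.3%, against 13.6% of all genes), and below in 0. The part of these markers was not tested either.

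**Figure D3:**
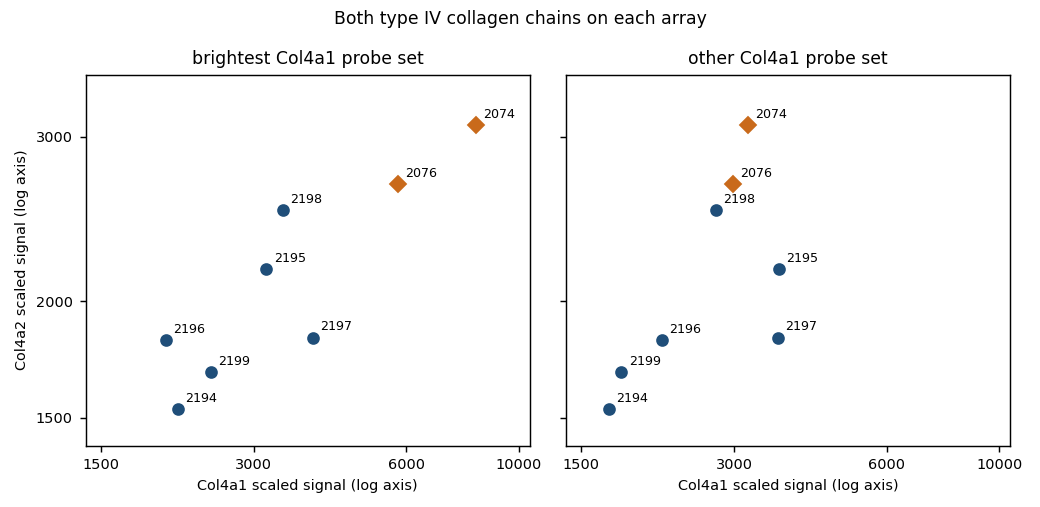
Scaled signal of Col4a2 against Col4a1 on each array (log axes), with the brightest Col4a1 probe set on the left and the other on the right, orange diamonds for arrays 2074 and 2076 and blue circles for arrays 2194 to 2199. On the left the diamonds lie at the upper right, at 8218 and 5765 for Col4a1, while on the right they lie within the range of the circles, at 3194 and 2989.

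The linking proteins varied on other arrays. Nid1, nidogen-1, which bridges laminin and type IV collagen, gave 1796, 1105, 1595, 4787, 1410.1, 1732, 923 and 1975. Array 2195 lay far above all others. The full range was 5.19-fold with it and 2.14-fold without it, and the inner range was 1.79-fold. The second probe set of Nid1 was also highest on array 2195, at 1079 against 78.2 to 602 elsewhere, although it was at the floor on 4 arrays. This was not particular to Nid1. The dim second probe set of Lamc1 (1322) and Nid2 (594) were highest there too, as were 23.7% of all measured genes. Array 2195 had the highest floor too, 473 against 274 to 385 on the others. It also had the highest mean centred level of the endothelial (1.09 log2), theca (0.97) and oocyte (0.93) markers. These means rest on 5, 3 and 2 genes, and the mean over all measured genes was also highest there, at 0.17. Some marker values were raised to the floor, as for Cyp17a1 of the theca list, at 319 on array 2195. The highest Cyp17a1 signal was on array 2198, at 1164, whereas Insl3 and Hsd3b1 of this list were highest on array 2195. The brightest Nid1 probe set was at the floor on 0 arrays. The part of these markers, and of whatever raised the low signals of array 2195, in the Nid1 value was not tested. Nid2, nidogen-2, passed the array median on 1 array and lay at the floor on 4, with signals of 42.0 to 594, so its order over arrays cannot be read.

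Hspg2, which encodes perlecan, gave 1065, 809, 1258, 1620.3, 1013, 622, 1584 and 721. Arrays 2195 and 2198 were high and 2197 and 2199 low, with arrays 2074 and 2076 in between. Its inner range of 2.20-fold was wider than in 79.4% of genes, and it was also 2.20-fold over arrays 2194 to 2199 in the same scaling.

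Fibronectin and SPARC differed in where they were high. Fn1, an adhesive glycoprotein bound by integrins, gave 1723, 2442, 2092, 3693, 4122, 2014, 2385 and 2575. Arrays 2195 and 2196 were high and array 2074 the lowest, with a full range of 2.39-fold and an inner range of 1.83-fold. Sparc, a secreted glycoprotein that binds collagen, gave 2890.5, 1761, 1475, 2059, 1255, 998, 2614 and 2161. Arrays 2074 and 2198 were high and array 2197 low, with a full range of 2.90-fold and an inner range of 2.08-fold. The inner range was just under 2-fold with quantile normalization (0.992 on the log2 scale) or without further scaling (0.999), 1.82-fold with the mean of its probe sets, and 1.73-fold to 1.76-fold without array 2074, 2196, 2197 or 2198. Its second probe set gave 934, 616, 552, 184, 547, 900.0, 1583 and 1018 and agreed only in part (r = 0.43 over 8 arrays): array 2198 was high in both, whereas array 2197 was lowest in the first and 2195 in the second.

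Counted by array, 7 of the 9 members lay above their own median on array 2074, against 46.2% of all measured genes, and 7 on array 2195, against 61.3%. The count was 1 on array 2196, against 46.6% of genes, and 2 on array 2194, against 52.4%. The median centred log2 level of the members was 0.11 on array 2074, against -0.03 over all measured genes, and 0.12 on array 2195, against 0.10. The means were 0.31 against -0.03 on array 2074, and 0.33 against 0.17 on array 2195, where Nid1 alone stood at 1.53. Array 2074 was the highest for 4 members (Lama1, Col4a1, Col4a2 and Sparc), against 14.2% of all measured genes, and the lowest for Fn1. For Col4a1 and Sparc this held only in the brightest probe set. The second probe set was highest on array 2195 for Col4a1 (3677, against 3194 on array 2074). For Sparc it was highest on array 2198 (1583, against 934 on array 2074).

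Whether chains of the same assembly varied together was asked for 7 pairs of genes, of which 6 could be computed because Nid2 was not measured. Since arrays 2074 and 2076 stood apart, correlations were taken over arrays 2194 to 2199. Col4a1 and Col4a2 had r = 0.61 (n = 6, exact two-sided permutation p = 0.210) and Spearman's rho = 0.66 (exact p = 0.175). Adjusted by Benjamini-Hochberg over the 10512 genes correlated with Col4a1, the exact p was 1, and 7.26% of genes followed Col4a1 more closely. Without arrays 2196 and 2197, which lay farthest from the median of Col4a1, r was 0.99 over the 4 left, and with all 8 arrays it was 0.88. With the second Col4a1 probe set, an alternative added after the values were seen, r over the 6 arrays was 0.64. With the 720 orders of 6 arrays, the smallest adjusted p of any gene correlated with Col4a1 was 1, so the adjusted test could not decide.

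The exact p of each of the other 5 pairs was 0.246 or more. The adjusted test could not decide these pairs either. With 6 arrays, the smallest adjusted p of any gene correlated with their first genes was 0.503 or more. Lama1 and Lamc1 had r = 0.57 (exact p = 0.246, rho = 0.60 with exact p = 0.242), Lamb1 and Lamc1 r = 0.34 (exact p = 0.512, rho = 0.37 with exact p = 0.497), and Lama1 and Lamb1 r = -0.15 (exact p = 0.803, rho = -0.26 with exact p = 0.658). Adjusted over all genes the exact p-values were 1, 0.929 and 1. Nid1 with Lamc1, the chain that nidogen binds, had r = 0.01 (exact p = 0.988, rho = 0.03 with exact p = 1, adjusted p = 0.997). Sparc with Col4a1 had r = 0.08 (exact p = 0.878, rho = 0.09 with exact p = 0.919, adjusted p = 0.990). Without the 2 arrays farthest from the median of the first gene, r was 0.51 for Lama1 with Lamc1, 0.72 for Lamb1 with Lamc1, -0.69 for Lama1 with Lamb1, 0.30 for Nid1 with Lamc1 and 0.82 for Sparc with Col4a1. Leaving out 1 array alone changed the sign for 4 pairs: Lama1 with Lamb1 (0.52 without array 2198), Lamb1 with Lamc1 (-0.46 without array 2197), Nid1 with Lamc1 (-0.01, -0.26 and -0.16 without array 2194, 2195 or 2196) and Sparc with Col4a1 (-0.18 and -0.20 without array 2196 or 2198). Sparc with Col4a1 had r = 0.90 without array 2197, and Lamb1 with Lamc1 0.92 without array 2198. Lama1 with Lamc1 had r = 0.24 without array 2196, and 0.05 over all 8 arrays.

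Over all 36 pairs of measured members the median r was 0.11, against 0.03 over all 55256328 pairs of measured genes. A value of r above 0.5 was found in 7 of the 36 (19.4%), against 18.0% of all pairs, and one below -0.5 in 5 (13.9%), against 15.5%. The closest pair was Lamc1 with Col4a1 (r = 0.95, exact p = 0.00972, rho = 0.94 with exact p = 0.0167, adjusted over all genes 1), and the most opposed was Lama1 with Fn1 (r = -0.88, exact p = 0.0306, rho = -0.77 with exact p = 0.103, adjusted 1). Both were picked from the 36 after their values were seen. Lamc1 with Col4a1 had r = 0.28 over all 8 arrays, with Lamc1 at 4979 and 5530.5 on arrays 2074 and 2076, where Col4a1 was highest, and without arrays 2196 and 2197 r was 0.88. Lama1 with Fn1 had r = -0.83 over all 8 arrays, but over arrays 2194 to 2199 r was 0.00 without arrays 2195 and 2196.

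**Figure D4:**
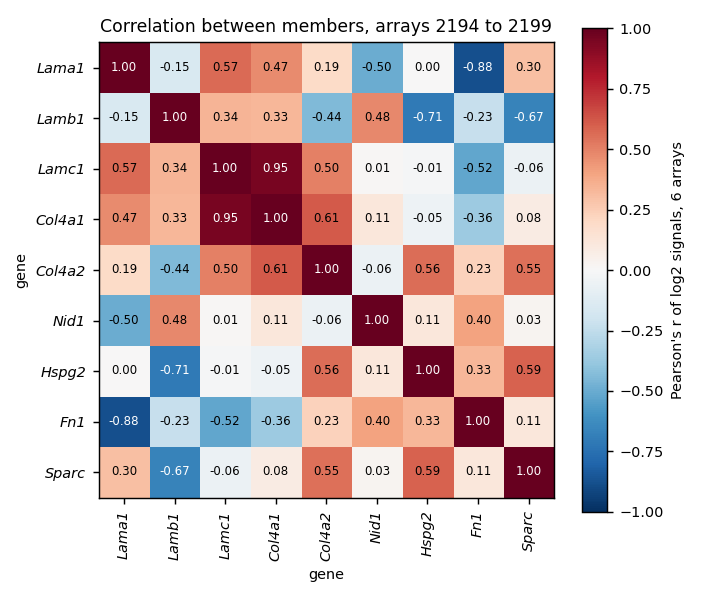
Pearson's r between the log2 signals of each pair of the 9 measured members over arrays 2194 to 2199, from blue for -1 to red for 1. Lamc1 with Col4a1 is the highest pair at 0.95 and Lama1 with Fn1 the lowest at -0.88, and most cells are pale.

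The genes most like the mean of the members, ranked by the lower of r over 8 arrays and over arrays 2194 to 2199, were Slc16a3, Pacsin3, Gadd45gip1, Ankrd37, Coasy, Dhodh, Nicol1 and Sdsl. Slc16a3, a lactate transporter, had r = 0.97 in both. Its signals were 2261 and 2028 on arrays 2074 and 2195, and 321 to 1011 elsewhere. Pacsin3 had r = 0.98 and 0.97. Ankrd37, Nicol1 and Sdsl were at the floor on 3, 5 and 4 arrays. These values are a description over few arrays, in which 169 of 10504 genes reached at least 0.8 by this measure. The members themselves had r with their own mean from -0.08 for Fn1 and -0.03 for Lamb1 to 0.67 for Sparc and 0.70 for Col4a2 over 8 arrays. The genes named above were picked from 10504 for their closeness to this mean. Their higher r is therefore set by the picking and says nothing about the members.

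Other genes of the matrix were read from lists of related genes. Of the other laminin chains, 6 of 8 were measured, and 3 spanned 2-fold or more, against 29.8% of all genes. These were Lama5 (at least 2.45-fold), Lama2 (at least 2.43-fold, with 4 arrays raised to the floor) and Lamb3 (at least 2.31-fold). Lama4, a chain of vessel walls, had the narrowest, 1.43-fold, although array 2199 was low at 433 against 937 to 1459 on the others. In 0 of the 6 did arrays 2074 and 2076 lie beyond the rest, against 13.6% of all measured genes with the pair above and 14.5% below.

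Of other basement membrane collagens and proteoglycans, 9 of 15 were measured and 4 had at least 2-fold (44.4%, against 29.8% of all genes). Arrays 2074 and 2076 lay above the rest in 2 (22.2%, against 13.6%) and below in 2 (22.2%, against 14.5%). Col18a1, a collagen of basement membranes that carries heparan sulfate, had 3.10-fold, with 13719 and 10109.8 on arrays 2074 and 2076 against 1959 to 8267 on the other 6, and 1.44-fold without array 2194 or 2199, which were the lowest. The next probe set of Col18a1 spanned 1.13 on the log2 scale, against 1.63. Tinagl1 had at least 2.74-fold. Col4a5, a type IV collagen chain found in other trimers, had the opposite order to Col4a2 and the brightest Col4a1 probe set. It gave 2270.0 and 2238 on arrays 2074 and 2076, against 7296, 4246, 5139, 4064, 3627 and 3212, without overlap. Smoc1, related to SPARC, had the narrowest inner range, 1.52-fold, but its next probe set spanned 1.75 or more on the log2 scale against 0.60.

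Genes for folding and cross-linking collagen held the largest share of genes with the order of Col4a2 and of the brightest Col4a1 probe set. The lists were made with earlier results of these data known, so the share is a description only. Of 17 listed, 16 were measured, and in 9 (56.2%) arrays 2074 and 2076 lay above all of the other 6, against 13.6% of all genes, while 1 lay below (6.25%), against 14.5%. Serpinh1, the collagen chaperone HSP47, gave 35128 and 26880.2 on the pair, against 5317 to 11069 on the other 6. P4hb, a subunit of the enzyme that hydroxylates collagen prolines, gave 40595 and 32362, against 7951 to 12439. Their inner ranges were 3.92-fold and 3.60-fold, and 1.62-fold and 1.39-fold without array 2074 or 2076. The next probe set of Serpinh1 spanned 0.62 or more on the log2 scale, against 1.97. Lox, which cross-links collagen and elastin, had 3.87-fold without this order (2.32-fold without array 2074 or 2194, 2.51-fold without array 2197 or 2199), and Colgalt1, which adds galactose to collagen, had the narrowest, 1.22-fold, against a log2 inner range of 1.52 in its next probe set.

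Of the matrix receptors, 16 of 19 were measured and 8 had at least 2-fold (50.0%, against 29.8% of all genes). Arrays 2074 and 2076 lay above the rest in 5 (31.2%, against 13.6%) and below in 3 (18.8%, against 14.5%). Sdc4, a cell surface heparan sulfate proteoglycan, had 3.51-fold, with 37516 and 31364 on the pair against 8295 to 16478, and 1.84-fold without array 2074 or 2076. Itgb5, an integrin beta chain, had 2.35-fold, but its next probe set spanned 0.62 on the log2 scale against 1.23. Itgb4, the integrin chain of hemidesmosomes, had at least 2.31-fold. Dag1, dystroglycan, which binds laminin, had the narrowest, 1.25-fold, although array 2074 was high at 24337 against 8803 to 15540.0, and its next probe set had 1.03 on the log2 scale against 0.32. Of remodelling enzymes and inhibitors, 14 of 16 were measured and 7 had at least 2-fold (50.0%, against 29.8% of all genes). The pair lay above the rest in 5 (35.7%, against 13.6%) and below in 3 (21.4%, against 14.5%). Adamts4, a proteoglycan-cleaving protease, had 9.89-fold, and 4.30-fold without array 2074 or 2076, 6.05-fold without array 2195 and 5.97-fold without array 2198. The plasminogen activator genes Plau and Plat had 3.11-fold and 2.98-fold, and Adam17, a sheddase, the narrowest, 1.30-fold.

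**Figure D5:**
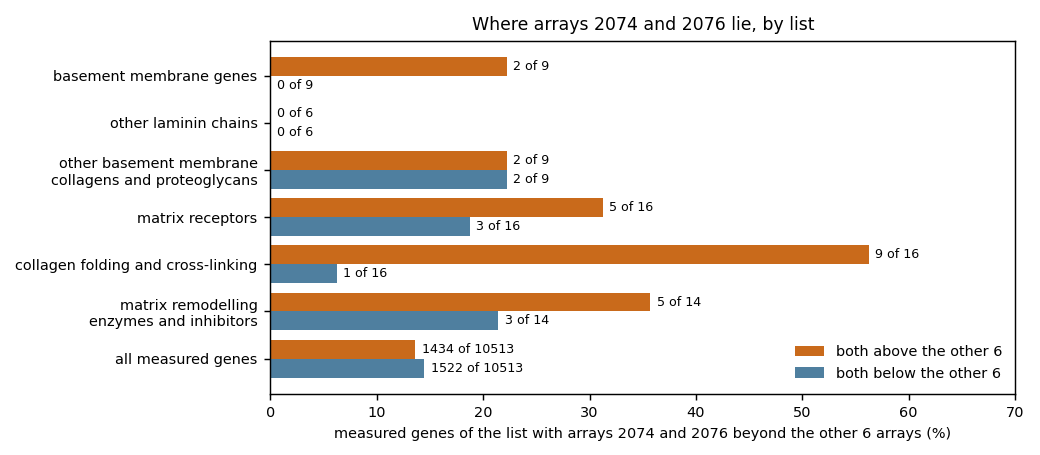
Bars give the share of each list's measured genes in which arrays 2074 and 2076 both lay above (orange) or both below (blue) the other 6 arrays, with counts beside them. Collagen folding and cross-linking genes have the longest orange bar, 9 of 16, against 1434 of 10513 for all measured genes and 2 of 9 for the basement membrane genes. The lists were made with earlier results of these data known.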

How the data were processed

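Signal intensity was deposited on a linear scale for 31099 probe sets on 8 arrays. Per the submitters' processing notes it came from MAS5, with a version not given in the sources. On every array the mean without the top and bottom 2% was 1500.5 or 1500.6, so the arrays had been scaled before deposit. No detection calls were used, and precision is limited by the number of arrays.

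After removal of 57 control probe sets, signals were log2 transformed. Arrays were aligned on the median of those probe sets that exceeded the array median everywhere. For ranges and correlations, values below the 40th percentile of an array were raised to it (the floor); printed signals are before the floor. A range is given as "at least" where the second lowest array may have been raised. A gene is represented by its brightest measured probe set. Of the probe sets, 20826 had 1 symbol, 436 several (not used) and 9780 none listed. The platform annotation may be out of date: 20758 gene IDs were in a GRCr8 gene table, and 0 symbols changed. Promoter sequences are RefSeq's, build GRCr8.

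The members, lists and most choices were made with earlier results of these data known. Named are the members, the 8 genes most like their mean and, of each other list, the 3 measured genes with the widest inner range and the 1 with the narrowest. The pairs Lamc1 with Col4a1 and Lama1 with Fn1 were chosen after their values were seen. Alternatives covered scaling, floor, filter, probe sets, measure and arrays. Python 3.11.15, numpy 2.4.6 and pandas 2.3.3 were used, and the steps were tested on simulated data.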

Additional observations from a re-analysis of the deposited data

Results flagged for a closer look

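Among the 13 measured probe sets of the members, 1 had an array far from the other 7. For the brightest probe set of Nid1, array 2195 gave 4787 against 923 to 1975 on the others, and the gap to the next array was 0.538 of the whole log2 range, above Dixon's 95% critical value for 8 values. Chance flags about 1 in 20 sets of values, and 13 were looked at. The arrays are of unknown groups and so are not replicates of 1 condition.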

How the results depend on the processing

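The count of members with an inner range of at least 2-fold, 3 as reported, was 2 or 3 under each of the 6 other scalings, floors and filters run (quantile normalization or no scaling, no floor or one at the 25th percentile, no filter or one on every array). It was 1 with the mean of probe sets, 7 with the full range, 1 over arrays 2194 to 2199 and 1 to 3 when each array was left out in turn. The share of all measured genes at 2-fold or more changed as well. It was 19.3% to 39.6% under the 6 settings, against 29.8% as reported. With the full range it was 71.4%, and with each array left out 18.7% to 25.1%. With the mean of probe sets 2737 of 10513 genes reached 2-fold, and over arrays 2194 to 2199 the count was 1210 of 10095. Of the correlations, Col4a1 with Col4a2 kept its sign throughout (0.47 to 0.87 with 1 array left out). Lama1 with Lamc1 also kept its sign (0.24 to 0.71 with 1 array left out) but was 0.05 over all 8 arrays and 0.10 with the mean of probe sets, against 0.57 as reported. Lama1 with Lamb1 ran from -0.56 to 0.52 with 1 array left out and Sparc with Col4a1 from -0.20 to 0.90. Lamb1 with Lamc1 ran from -0.46 to 0.92 and was -0.24 with the mean of probe sets. Nid1 with Lamc1 ran from -0.26 to 0.32, was -0.11 without further scaling, -0.04 over all 8 arrays and 0.71 with the mean of probe sets. The cause of these changes was not tested. No paired analysis was possible because the labels put no array in a group. Low signals, as for Nid2, limit what can be read.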
